A study of Mus musculus with 50 samples.

Results

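WT mouse embryonic stem cells were compared after 8 h and at 0 h of actinomycin D, a drug that binds DNA and blocks transcription. The comparison used every library of WT cells labelled 0 h or 8 h, which is 8 of the 50 libraries of the series. There were 4 libraries at each time: replicates A and B, each with duplicate libraries numbered 1 and 2. The cells were of the KH2 line, of the strain background C57BL/6 x 129/Sv, and the labels give them no edited allele. The medium held serum and LIF, gelatin-coated plates were seeded 48 h ahead, and new medium brought actinomycin D to 5 µM. As background, KH2 is an established stem cell line built to carry inducible transgenes at the Col1a1 locus. RNA was read by 3′ end sequencing of poly(A) RNA, and the other 40 libraries were of Ythdf1, Ythdf2, Ythdf3 and triple knockout cells, which the study set against WT to ask about mRNA decay. The 2 WT libraries of 4 h, 1 of each replicate, were used as a middle point.

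When transcription is blocked, no new mRNA is made, and each transcript is lost at a pace set by its own decay. Decay of most mRNAs starts with shortening of the poly(A) tail by the CCR4-NOT and PAN complexes, followed by removal of the cap and digestion from either end. Sequences in the 3′ untranslated region (UTR), such as AU-rich elements, Pumilio sites and microRNA sites, recruit these enzymes. Transcripts of transcription factors and signalling genes are known for short lives, and those of ribosomal proteins and metabolic enzymes for long ones. Because values are shares of a library, a transcript that decays more slowly than the average gains share with no new synthesis.

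Levels are given in FPM, reads scaled to a library total of 1000000. Library totals were 875830 to 1698720 reads, so that 1 read was worth 0.589 to 1.142 FPM. The genes listed in the deposited table held 42.4 to 43.9% of each library at 0 h and 32.9 to 33.4% at 8 h, and at 4 h the shares were 39.7 and 40.8%. Every change below is on the log2(FPM + 1) scale, 8 h minus 0 h, with a standard error (SE) from limma and n = 2 replicates at each time. A gene is said to have risen or fallen where limma's Benjamini-Hochberg adjusted p over all 9078 genes tested was under 0.05. Of these genes 5007 fell (55.2%) and 157 rose (1.73%), and the median change was -0.81. The labels name no RNA standard added per cell, so a second count was taken relative to the median gene, by which 1851 genes were higher (20.4%) and 1672 lower (18.4%). With TMM scaling the counts were 1570 higher and 2131 lower, and with scaling to the listed genes 730 and 3249. The median change was -0.01 with median gene, -0.16 with TMM and -0.48 with listed gene scaling, which move all genes up together, so that small falls can turn to values above 0. The labels do not say that replicates A and B were separate cultures. The SE and p-values then rest on the spread between A and B, pooled over the 30 replicate means of all genotypes and times. That spread may be technical. Over genes, the chi-square of the reads of 2 libraries of a time was 1.32 to 1.45 per gene between duplicates and 1.32 to 1.49 between replicates A and B. In bulk RNA, fewer cells of a type and less RNA per cell cannot be told apart.

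The median change was alike in both replicates, at -0.78 in replicate A and -0.82 in replicate B. Of the genes tested 85.5% had the same sign in both. Most genes lay below 0, so a shared sign is partly set by that common shift. Precision followed the level of a gene: the median SE was 0.50 for the 3006 genes under 10 FPM at 0 h, 0.31 for the 4259 genes at 10 to 50 FPM, 0.14 for the 1451 genes at 50 to 200 FPM and 0.073 for the 362 genes over 200 FPM. Across genes, which are not independent replicates, the changes in A and B had a Pearson's r of 0.704 in all, 0.48 under 10 FPM and 0.97 over 200 FPM. For the genes over 200 FPM the median change was -0.10 on the library total, and 19.9% of them rose and 42.5% fell. At 50 to 200 FPM 3.17% rose, at 10 to 50 FPM 0.45% and under 10 FPM 0.67%. The shares over all genes tested, given beside the lists below, are thus not matched to the level of a list.

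**Figure D1:**
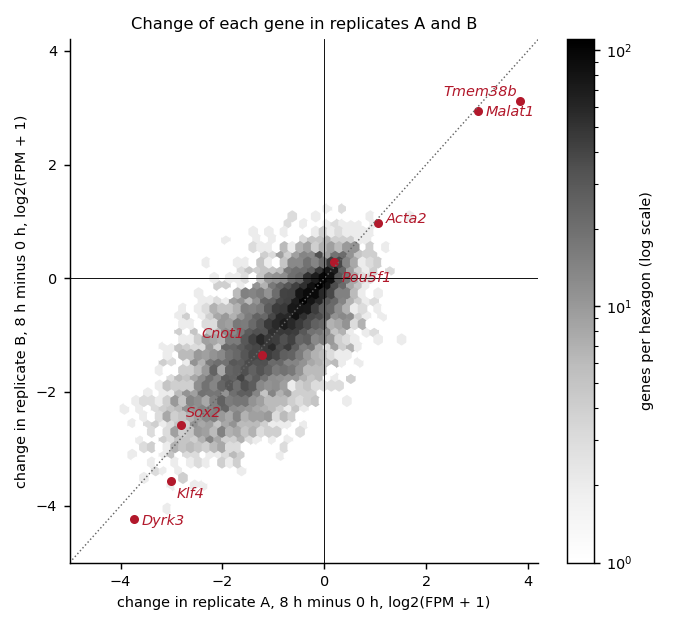
The change of each of the 9078 genes tested from 0 h to 8 h in replicate A (x axis) and replicate B (y axis), in log2(FPM + 1), as counts of genes per hexagon on a log colour scale, with 8 genes marked. Most genes lie below 0 on both axes, and Tmem38b and Malat1 stand apart at the upper right.

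Sequences from the 3′ UTRs of genes with large falls are shown first, as examples of the elements named above. The part of these sites in the falls was not tested. Each line gives the first match in the 3′ UTR of a GENCODE M21 transcript, the one that the table's accession maps to or otherwise the one with the longest 3′ UTR, with 9 bases on either side where the UTR allows, 5′ to 3′ on the gene's strand, in build GRCm38. Capitals mark the match to TATTTAT, the core of an AU-rich element.
Slc38a2: ctgtactgtTATTTATagagcagca
Pim3: acggtctctTATTTATggtgtgatc
Nodal: atatatatgTATTTATttttgatgc
Klf2: acagactgcTATTTATtggacctta
Fgf4: acgcccaatTATTTATaattttatg
Sox2: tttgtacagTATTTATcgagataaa
These 6 sites lie at chr15:96687933-96687957 (minus strand), chr15:88865223-88865247 (plus), chr10:61424945-61424969 (plus), chr8:72320990-72321014 (plus), chr7:144863071-144863095 (plus) and chr3:34651824-34651848 (plus). They belong to the 6 genes with the lowest changes among the pluripotency, regulator and largest-change genes that had such a match.

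A second set shows the Pumilio element, a site through which the CCR4-NOT complex is recruited. Capitals mark the match to TGTANATA, where N is any base. The 6 genes are those with the lowest changes among all genes named here that had a match, and this set was chosen after their values were seen.
Dnajb1: tggaacgtaTGTAAATAtgtttttat
Med4: gtgtttggtTGTACATAgcagccctg
Slc38a2: atgataaacTGTACATAtattgtcca
Nodal: aggctggggTGTATATAtatatatgt
Klf2: ttataatatTGTATATAagactatga
Mycn: gaacacttgTGTAAATAccattgata
In the same order, the sites lie at chr8:83611653-83611678 (plus), chr14:73518234-73518259 (plus), chr15:96687872-96687897 (minus), chr10:61424913-61424938 (plus), chr8:72321229-72321254 (plus) and chr12:12936595-12936620 (minus). A match is a run of letters and was not tested for binding. The 3′ UTR of Slc38a2 held 5 Pumilio elements and 2 AU-rich cores.

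The 10 largest falls among genes with at least 50 FPM at 0 h were in genes of several roles. Dyrk3, a protein kinase that dissolves condensates during mitosis, stood at 56.1, 48.2, 51.8 and 54.5 FPM in the 4 libraries of 0 h and at 6.85, 1.003, 3.38 and 0.880 FPM at 8 h. Its change of -3.99 ± 0.29 (adjusted p 1.28e-18) was rank 3 from the lowest of the 9078 genes. Slc38a2, an amino acid transporter induced by amino acid shortage, went from 93.1, 101.4, 107 and 105 FPM to 6.85, 9.03, 6.75 and 9.68 FPM, a change of -3.51 ± 0.26. For Pim3, a kinase downstream of LIF and STAT3, the change was -3.36 ± 0.24. Zfp296, a zinc finger protein of pluripotent cells, changed by -3.32 ± 0.29 and Nodal, a ligand of the TGF-beta superfamily, by -3.26 ± 0.27. Klf2, a naive pluripotency factor, was at 243 to 307 FPM at 0 h and 24.5 to 31.7 FPM at 8 h (-3.25 ± 0.16). Snhg5, a host gene of small nucleolar RNAs, changed by -3.20 ± 0.26 and Tsc22d1, a transcriptional regulator, by -3.15 ± 0.12. The remaining largest falls were those of Klf4 and Plk1, described below. In all 10 genes the highest library of 8 h lay below the lowest of 0 h, as it did in 49.6% of all genes tested.

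Time separated these falls into different shapes. Klf4, a transcription factor of naive pluripotency, was at 131, 150, 164 and 154 FPM at 0 h, at 12.9 and 14.4 FPM at 4 h and at 16.0, 17.1, 10.97 and 14.1 FPM at 8 h. It had thus reached 9.11% of its 0 h mean at 4 h and stood at 9.71% at 8 h. Nodal was at 8.33 and 9.88% at the same times, and Dyrk3 at 4.66 and 5.75%. Plk1, the polo-like kinase of mitosis, was at 53.2 to 58.3 FPM in 3 libraries of 0 h and 46.1 FPM in the fourth, at 29.3 and 26.3 FPM at 4 h, and at 2.28, 5.02, 5.06 and 7.92 FPM at 8 h. Plk1 therefore held 52.0% of its 0 h level at 4 h and 9.49% at 8 h. Rfc3, a clamp loader subunit of DNA replication, went from 45.9% at 4 h to 10.4% at 8 h. Gclm, the modifier subunit of the enzyme that starts glutathione synthesis, was at 91.0% and then 27.5%, and the ribosomal protein gene Rpl39l at 96.3% and then 38.3%. These 2 changes were -1.74 ± 0.28 and -1.36 ± 0.24 at 8 h. Both times are set against the same 0 h libraries, and the difference in shape between genes was not tested.

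**Figure D2:**
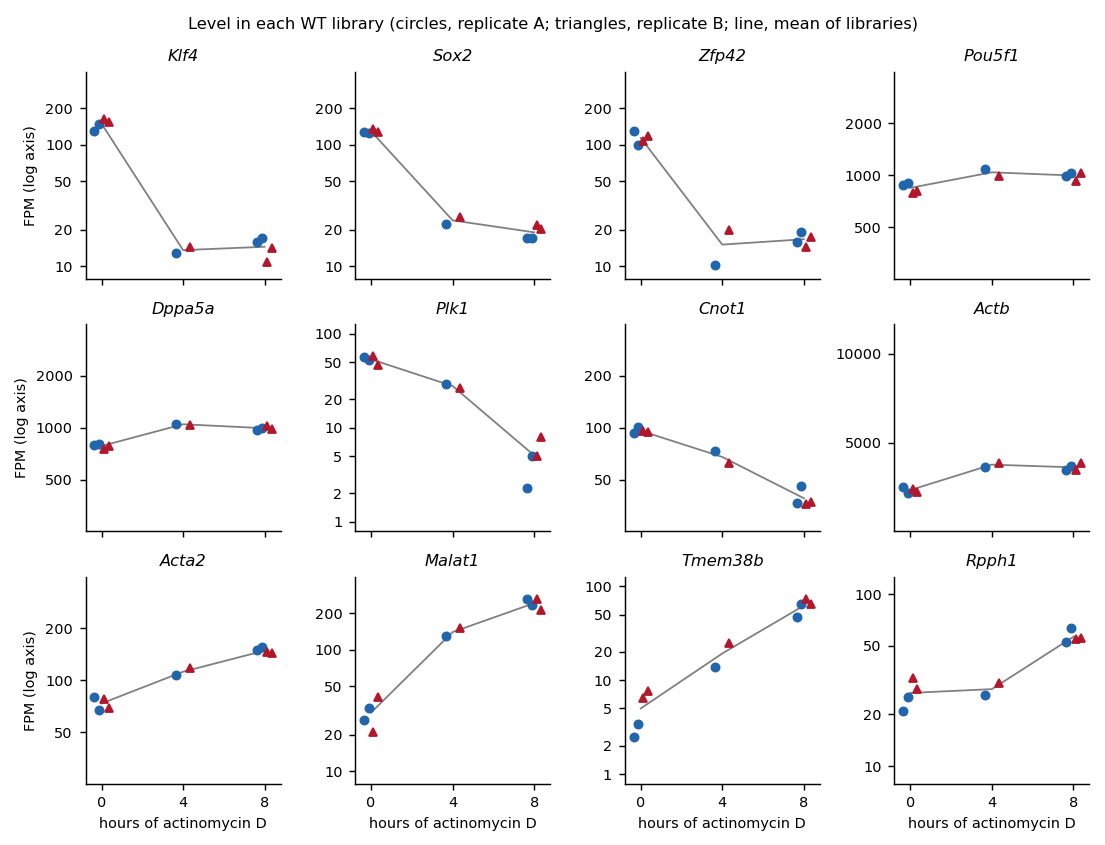
Level in FPM (y axis, log scale) of 12 genes in each WT library at 0, 4 and 8 h of actinomycin D (x axis). Circles are replicate A, triangles replicate B, and the line joins the means of the libraries. Klf4, Sox2 and Zfp42 reach their low level by 4 h, Plk1 keeps falling to 8 h, and Acta2, Malat1, Tmem38b and Rpph1 are highest at 8 h.

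Over all genes, at 4 h 2474 genes had fallen (27.3%) and 328 had risen (3.61%), and the median change was -0.37. When the genes were split into 5 equal classes by their change at 8 h, the median gene of the lowest class was at 33.0% of its 0 h level at 4 h and 18.8% at 8 h. The next classes were at 57.7 and 36.3%, 77.1 and 55.2%, and 94.5 and 75.9%. In the highest class the median gene was at 112% at 4 h and 104% at 8 h. The order at 8 h is set by the split, and both times share the 0 h libraries, so these values are a description. The classes also differed in gene structure. The median 3′ UTR was 1100 nt long in the lowest class and 616 nt in the highest, and the median coding length was 1503 nt and 984 nt. The GC content of the 3′ UTR was 43.8 and 46.4%. These are descriptions of the annotation, and length and GC content were not separated from level.

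Pluripotency factors did not move together. Of the 24 tested genes of naive pluripotency 20 fell and 1 rose, with a median change of -1.30. Of 18 core factors 15 fell and 1 rose, with a median of -1.46. These counts stand beside 55.2% of all genes tested that fell and 1.73% that rose. Sox2, a partner of Oct4 on DNA, was at 128, 126, 136 and 127 FPM at 0 h and at 17.1, 17.1, 21.9 and 20.2 FPM at 8 h (-2.70 ± 0.22, adjusted p 1.56e-16). Zfp42, which encodes the stem cell marker Rex1, went from 100.6 to 129 FPM to 14.3 to 19.1 FPM (-2.70 ± 0.21). Klf4 changed by -3.29 ± 0.20 and Foxd3, a repressor at stem cell enhancers, by -2.71 ± 0.39. The groups did not overlap in any of these 4 genes, as was so, with the lower level at 8 h, in 49.6% of all genes tested.

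Pou5f1, which encodes Oct4, went the other way. Its libraries were at 884, 902, 786 and 809 FPM at 0 h and at 996, 1035, 929 and 1026 FPM at 8 h. Every 8 h library lay above every 0 h library, as was so for 1.49% of all genes tested. The change was 0.24 ± 0.05 (adjusted p 1.36e-04), at the 95.6th percentile of the genes tested. Dppa5a, an RNA-binding protein of pluripotent cells, rose from 751 to 804 FPM to 967 to 1020 FPM (0.34 ± 0.05). The naive genes that did not pass were Pecam1 at -0.34 ± 0.26, Sox15 at -0.28 ± 0.19 and Tcl1 at -0.05 ± 0.13, and in the core list they were Otx2 at -0.97 ± 0.52 and Lin28a at -0.02 ± 0.16. These 5 were named after their values were seen. Tdgf1, a Nodal co-receptor, was at 318 to 358 FPM and then 193 to 215 FPM (-0.69 ± 0.08), close to the median gene, and relative to that gene its value was 0.11. Nanog was listed at 0 to 3.38 FPM in all 8 libraries and was not tested.

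The Pou5f1 gene lies at chr17:35506032-35510777, Sox2 at chr3:34649995-34652461 and Klf4 at chr4:55527137-55532475 of GRCm38. The 9 stem cell markers checked, Nanog among them, summed to 2760 to 2965 FPM at 0 h and 2374 to 2448 FPM at 8 h.

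Signalling genes fell in nearly every list, beside a share of 55.2% over all genes tested. All 36 tested immediate-early and short-lived regulators fell, with a median change of -2.22, and the median member was at 20.7% of its 0 h level at 4 h and 17.4% at 8 h. Ier2, an immediate-early nuclear protein, was at 97.4 to 113 FPM and then 11.04 to 25.5 FPM (-2.55 ± 0.27). Ccn1, a secreted matricellular protein, changed by -3.44 ± 0.35. The AP-1 subunit gene Jun was at 5.07 to 6.99 FPM at 0 h and at 0 FPM in 3 of the 4 libraries of 8 h, and Myc was at 2.94 to 6.99 FPM and likewise at 0 FPM in 3 of 4. Relative to the median gene Junb (-2.02 ± 0.52) and Myc (-2.01 ± 0.57) no longer passed, and Myc also did not pass without 8 h replicate B (adjusted p 0.0553). The member nearest to 0 with at least 20 FPM was Kdm6b, a histone demethylase, at -0.61 ± 0.23, whose libraries overlapped between times. It lost its call with any 1 of 3 replicate means left out (without 0 h replicate A, 0 h replicate B or 8 h replicate B, adjusted p 0.0615 to 0.442).

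In the TGF-beta superfamily and Id list 17 of 18 members fell, with a median of -2.22. The ligand genes were unequal. Nodal was at 87.9 to 103 FPM and then 6.02 to 12.6 FPM, and Lefty1, an inhibitor of Nodal, at 12.6 to 29.6 FPM and then 0 to 2.01 FPM (-3.49 ± 0.47). Its relative Lefty2 was at 161 to 194 FPM and then 87.9 to 125 FPM (-0.82 ± 0.12), at the 49.6th percentile, with 97.8% of its 0 h level left at 4 h, and it did not pass relative to the median gene (adjusted p 0.911). Among the Id genes, which block basic helix-loop-helix factors and respond to BMP, Id3 changed by -2.71 ± 0.39 and Id1 by -2.38 ± 0.44. Acvr2a, an activin receptor gene named after its value was seen, did not pass at -0.56 ± 0.52.

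Fgf4, the autocrine growth factor of these cells, was at 110, 111, 115 and 115 FPM and then 26.3, 10.0, 13.5 and 19.4 FPM (-2.72 ± 0.25), while the receptor gene Fgfr1 changed by -0.81 ± 0.21 and did not pass with median gene, TMM or listed gene scaling (adjusted p 0.0822 to 0.976). Of the 9 FGF and ERK feedback genes 7 fell. Of 12 genes of LIF and STAT3 signalling 10 fell. Among members with at least 20 FPM the changes ran from Socs3, the feedback inhibitor, at -3.54 ± 0.45 to Stat3 at -1.26 ± 0.27. Stat3 did not pass relative to the median gene (adjusted p 0.175 by limma). Of 16 Wnt genes 12 fell, with the receptor gene Fzd5 at -2.96 ± 0.32 and Ctnnb1, which encodes beta-catenin, at -0.34 ± 0.07, or 0.46 relative to the median gene. Within the Myc network 6 of 8 fell. Mycn was at 24.1 to 37.1 FPM and then 1.14 to 4.40 FPM (-3.21 ± 0.38), and Mxd3, a Max partner, had the smallest fall at -0.24 ± 0.11. Mxd3 lost its call in each of the 4 fits without 1 replicate mean (adjusted p 0.0521 to 0.234).

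Of 23 p53 targets 17 fell, from Btg2, an antiproliferative factor that also binds the deadenylase, at -2.85 ± 0.40, to Trp53 itself, which did not pass at -0.18 ± 0.09. Its libraries were at 168 to 182 FPM at 0 h and at 151 to 165 FPM at 8 h. In the Bcl2 family 7 of 12 fell, near the share of all genes tested (55.2%). Mcl1, a labile survival factor, was at 101.4 to 125 FPM and then 15.2 to 21.1 FPM (-2.62 ± 0.20), and the pore-forming Bak1 had a change of -0.14 ± 0.12 that did not pass. With TMM or median gene scaling the median of the Bcl2 family was 0.07 or 0.18, against -0.62 on the library total.

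Zinc finger genes were the largest list and lay low as a body. Of 183 tested Zfp genes, many of them KRAB repressors of transposable elements, 155 fell and 0 rose by limma, with a median of -1.81. The shares over all genes tested were 55.2 and 1.73%. At an unadjusted p under 0.05 there were 162 and 0, and by edgeR's quasi-likelihood test 159 and 0. The median member was at 30.5% of its 0 h level at 4 h and 20.8% at 8 h. In the reads of listed genes the list went from 0.790 to 0.300% of the total. Relative to the median gene limma called 80 lower and 1 higher, the higher one being Zfp106, at -0.22 ± 0.14 on the library total and not past the test there.

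Most regulators of chromatin fell. The polycomb complexes had 21 of 24 members down with a median of -1.42, and histone lysine methyltransferases and demethylases 28 of 35 with a median of -1.38. Kdm2b, a member of both lists that binds CpG islands, changed by -2.45 ± 0.47, but it shares its values with another gene of the table. Pcgf2, a polycomb RING finger protein, had a change of -0.30 ± 0.24 and Ehmt2, the G9a methyltransferase, one of -0.31 ± 0.14, and neither passed. In the DNA methylation list 8 of 13 fell, against 55.2% of all genes tested. Tet2, a 5-methylcytosine oxidase, went from 65.4 to 74.4 FPM to 16.1 to 24.6 FPM (-1.69 ± 0.21), and the de novo methyltransferase gene Dnmt3b was at 37.2 to 43.3 FPM and then 32.0 to 52.2 FPM (-0.10 ± 0.17, not past). Of 5 histone genes, H1f0, H2ax and H2az1 fell, and the median of the list was -0.61, or 0.13 and 0.19 with TMM and median gene scaling. H2ax changed by -0.62 ± 0.08, and H3f3a, a replacement histone, by 0.03 ± 0.12, which did not pass.

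Cell cycle genes fell with a spread of sizes, beside a share of falls of 55.2% over all genes tested. Of 42 mitosis genes 38 fell, with a median of -1.13, and the median member was at 63.6% of its 0 h level at 4 h and 44.5% at 8 h. Ube2s, a ubiquitin-conjugating enzyme of the anaphase-promoting complex, lay nearest to 0 at -0.21 ± 0.08 and did not pass without replicate A of either time (adjusted p 0.125 and 0.223). Of 44 genes of G1/S and DNA replication 36 fell. Their median of -0.78 was near that of all genes, so that it was 0.02 with median gene scaling, and Rfc3 stood lowest at -3.01 ± 0.33. Cdk4, the kinase of G1 cyclins, was at 270 to 298 FPM and then 279 to 312 FPM (0.07 ± 0.07, not past).

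The genes of mRNA decay lay near the median gene. Of 51 genes of deadenylation, decapping, the exosome and nonsense-mediated decay, 37 fell and 0 rose by limma, with a median of -0.93 at percentile 45.1 of the genes tested, of which 55.2% fell. Relative to the median gene limma called 8 higher and 14 lower. On the library total 39 fell and 0 rose at an unadjusted p under 0.05, and by edgeR 40 and 1. Cnot1, the scaffold of the CCR4-NOT complex, was at 93.7, 100.6, 95.4 and 94.4 FPM at 0 h, 73.1 and 62.2 FPM at 4 h, and 36.5, 46.1, 36.3 and 37.0 FPM at 8 h (-1.29 ± 0.14, adjusted p 5.31e-12). Cnot2, another subunit, was lower still at -2.61 ± 0.27. The decapping enzyme gene Dcp2 kept 92.8% of its 0 h level at 4 h and 50.1% at 8 h (-0.96 ± 0.21), and it did not pass with median gene or TMM scaling (adjusted p 0.557 and 0.368). Zfp36l1, which encodes a protein that binds AU-rich elements, changed by -1.60 ± 0.22. Lsm4, an Lsm protein linked to decapping, had a change of 0.19 ± 0.10 that did not pass. Btg1 and Xrn1 stood under 5 FPM in every library and were not tested. Of 20 writers, erasers and readers of the base modification m6A, 16 fell, and the median was -1.45. Among members with at least 20 FPM the changes ran from Ythdf1 at -2.30 ± 0.23 to the demethylase gene Fto at 0.18 ± 0.25, which did not pass.

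Genes of transcription and splicing fell in part, as did 55.2% of all genes tested. Of 28 Mediator subunits 20 fell, with Med4 at -3.60 ± 0.52 and Med25 at 0.34 ± 0.25 (not past). Of 28 RNA polymerase subunits 19 fell, from Cd3eap, a polymerase I subunit, at -3.33 ± 0.32 to Polr2e, shared by all polymerases, at 0.06 ± 0.09 (not past). SR proteins and hnRNPs fell in 24 of 32 cases. Srsf1, a splicing activator, changed by -1.59 ± 0.23, and Hnrnpk, at 402 to 421 FPM and then 376 to 424 FPM, by -0.04 ± 0.06, which did not pass. Among 38 core spliceosome proteins 26 fell and 1 rose, with Lsm8 at -2.25 ± 0.26 and Snrpd2, an Sm ring protein, at 0.30 ± 0.09. Snrpd2 did not pass without 0 h replicate A (adjusted p 0.056). The medians of both splicing lists, -0.56 and -0.48, turned to 0.18 and 0.25 with TMM scaling and to 0.24 and 0.32 with median gene scaling.

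**Figure D3:**
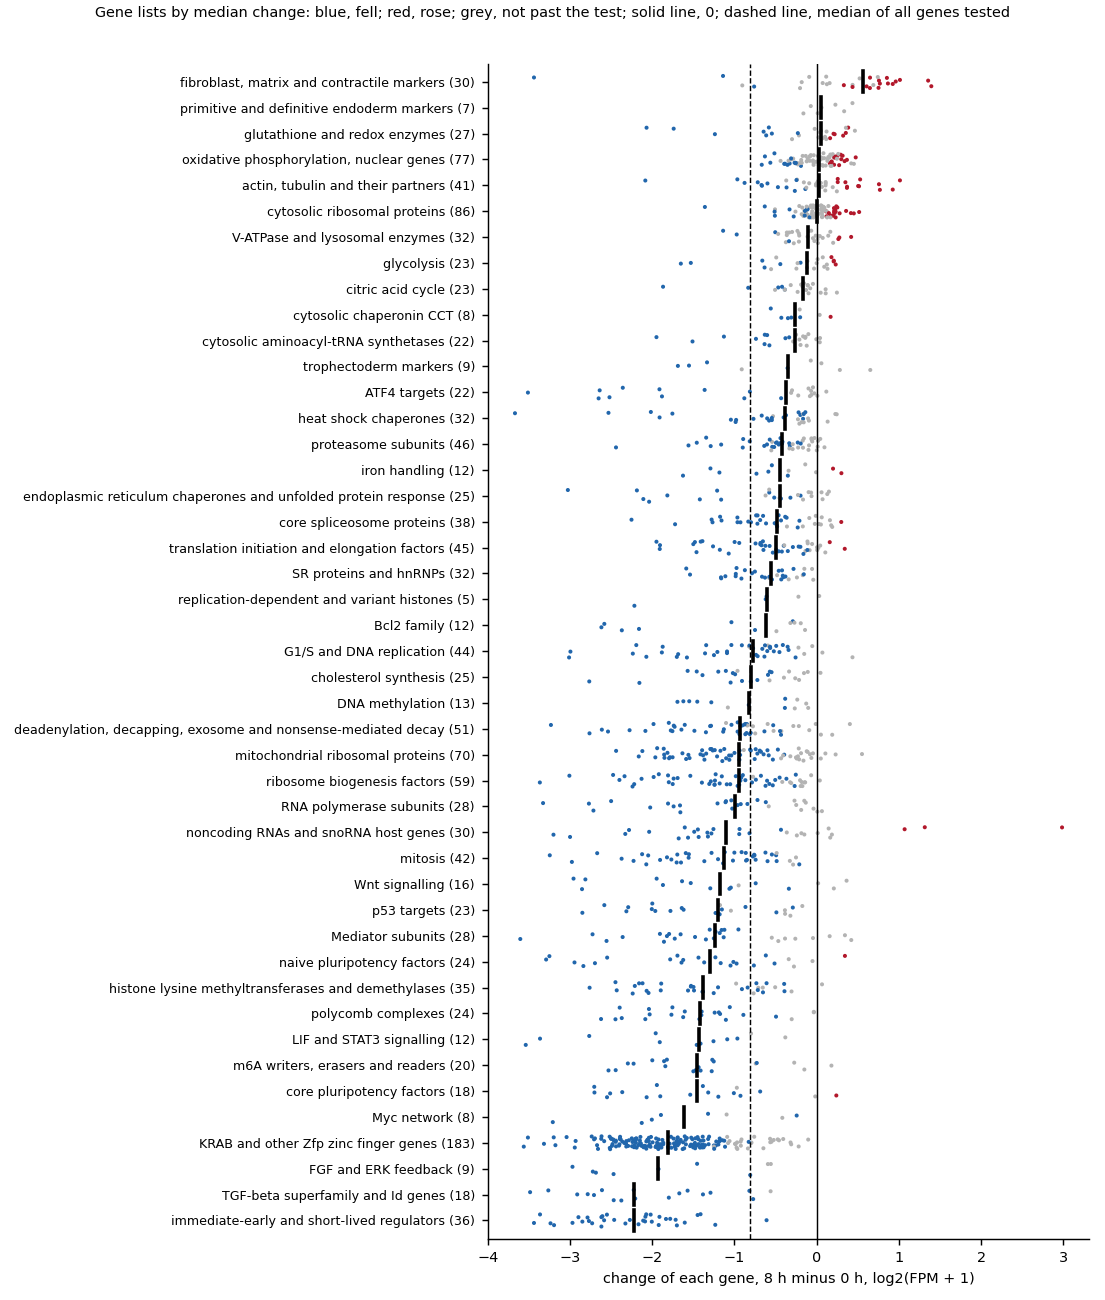
The change of each tested member of 45 gene lists, 8 h minus 0 h in log2(FPM + 1) (x axis), relative to the library total, with the number tested in brackets, ordered by the median (black bar); lists with fewer than 5 members are left out. Solid line, 0; dashed line, the median of all genes, -0.81. Short-lived regulators lie lowest and matrix and contractile genes highest.

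Genes of the protein synthesis apparatus did not share one median. Of 86 cytosolic ribosomal protein genes 19 rose and 12 fell, with a median change of 0.01. Over all genes tested 1.73% rose and 55.2% fell, and among genes over 200 FPM at 0 h 19.9 and 42.5%. Relative to the median gene 81 of 86 were higher and 0 lower by limma, with 1 lower at an unadjusted p under 0.05. The median member was at 121% of its 0 h level at 4 h and 100.53% at 8 h. Of the reads of listed genes the list held 10.3% at 0 h and 14.2% at 8 h, and of the whole library it held 43042 to 47161 FPM and then 46778 to 47458 FPM. Rps29 was at 228, 238, 248 and 252 FPM and then 316, 370, 363 and 335 FPM (0.52 ± 0.07, adjusted p 1.96e-08), and Rpl39l, a paralog of Rpl39, stood lowest at -1.36 ± 0.24, which did not pass relative to the median gene (adjusted p 0.0556). Many ribosomal protein genes have near-identical pseudogenes, and how such reads were counted is not given in the sources used here.

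Mitochondrial ribosomal proteins lay near the median gene, with 50 of 70 down and a median of -0.94. For this and the lists below, 55.2% of all genes tested fell and 1.73% rose. Mrpl43 changed by -2.44 ± 0.24 and Mrpl42 by 0.23 ± 0.16, which did not pass. The 59 ribosome biogenesis factors had 46 members down and a median of -0.94. Rrs1, needed for the large subunit, went from 60.8 to 67.1 FPM to 2.28 to 10.97 FPM (-3.01 ± 0.26), and Noc4l, of the small subunit processome, had a change of -0.14 ± 0.16 that did not pass. Of 45 initiation and elongation factors 32 fell and 2 rose, the latter being Pabpc1, the poly(A)-binding protein, at 0.16 ± 0.05 and Eif5a at 0.34 ± 0.05. Eif5a, which eases stalled peptide bonds, was at 928 to 1082 FPM and then 1206 to 1380 FPM. Pabpc1 was named after its value was seen. Eef1a1, the elongation factor that brings tRNA to the ribosome, was at 2714 to 2762 FPM, 3078 and 3114 FPM, and 2367 to 2547 FPM at 0, 4 and 8 h (-0.16 ± 0.03), a fall that turned to 0.22, 0.58 and 0.64 with scaling to the listed genes, TMM and the median gene. Of 22 aminoacyl-tRNA synthetase genes 10 fell, with Eef1e1, a scaffold of the synthetase complex counted in both lists, at -1.95 ± 0.24, and Nars at 0.04 ± 0.09 (not past). With TMM scaling the medians of these 2 lists, -0.49 and -0.27, turned to 0.23 and 0.46.

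Genes of oxidative phosphorylation together held 12271 to 13008 FPM at 0 h and 12699 to 13369 FPM at 8 h. Of these 77 nuclear genes 15 rose and 13 fell, with a median of 0.03, against 1.73 and 55.2% of all genes tested. All 77 had changes above that of the median gene, and limma called 72 of them higher relative to it. Cox6c, a subunit of cytochrome oxidase, was at 61.1, 79.4, 72.4 and 82.5 FPM and then 100.48, 102, 108 and 98.6 FPM (0.47 ± 0.13), and Ndufs7, of complex I, stood lowest among members with at least 20 FPM at -0.67 ± 0.19, or 0.13 with median gene scaling. Of 23 citric acid cycle genes 5 fell and 0 rose by limma, and 1 rose at an unadjusted p under 0.05 and by edgeR. The median of -0.17 turned to 0.21 with scaling to the listed genes. Pdha1, of pyruvate dehydrogenase, changed by -0.83 ± 0.11, which did not pass relative to the median gene (adjusted p 0.833). Sdha, of succinate dehydrogenase, changed by 0.25 ± 0.12, which did not pass by limma and did by edgeR (adjusted p 0.0369).

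In glycolysis 4 of 23 genes rose and 6 fell, against 1.73 and 55.2% of all genes tested. The median was -0.11, or 0.27 with scaling to the listed genes. Slc2a1, a glucose transporter, went from 182 to 215 FPM to 53.7 to 71.7 FPM (-1.65 ± 0.10), and Hk2, Slc2a3, Slc16a3, Pfkp and Aldoa also fell, by -1.53, -0.63, -0.66, -0.44 and -0.20. Gapdh was at 357, 345, 340 and 346 FPM and then 409, 411, 384 and 400.4 FPM (0.21 ± 0.06, adjusted p 3.25e-03), and Pkm rose by 0.18. Eno1 rose by 0.23 ± 0.06 but shares its values with another gene, and Eno1b rose by 0.21. Apart from Slc2a1, Gapdh and Eno1 these genes were named after their values were seen.

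Among 27 glutathione and redox genes 6 rose and 8 fell, with a median of 0.05, against 1.73 and 55.2% of all genes tested. Gpx4, which repairs lipid peroxides, was at 97.2 to 120 FPM and then 134 to 155 FPM (0.38 ± 0.09), against the fall of Gclm. Iron handling showed a like split among 12 tested genes, with falls near the share of all genes. The ferritin genes Ftl1 (0.30 ± 0.03, from 2339 to 2421 FPM to 2781 to 3086 FPM) and Fth1 (0.20 ± 0.05) rose, and 7 of the other genes fell, with Fbxl5, an iron sensor, at -1.63 ± 0.33. The median of the list was -0.45, or 0.16 with TMM scaling.

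Of 32 V-ATPase and lysosomal genes 3 rose and 4 fell, with a median of -0.10, or 0.26 with scaling to the listed genes. Atp6v1d, of the V-ATPase stalk, changed by -1.14 ± 0.20 and did not pass relative to the median gene (adjusted p 0.176). Atp6v0d1, of its membrane part, rose by 0.42 ± 0.13 but did not pass without replicate B at 0 h or replicate A at 8 h (adjusted p 0.095 and 0.125). Cholesterol synthesis had 16 of 25 members down, and its median of -0.80 was near that of all genes. Its highest member with at least 20 FPM was Acat2 at -0.11 ± 0.13 (not past). Beside the counts of these 2 lists, 55.2% of all genes tested fell and 1.73% rose.

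The medians of the protein quality control lists lay above that of all genes and turned above 0 with TMM scaling, to 0.31 for the proteasome, 0.35 for heat shock, 0.48 for CCT, 0.26 for the endoplasmic reticulum and 0.36 for ATF4 targets. The counts of falls below stand beside a share of 55.2% over all genes tested. Of 46 proteasome genes 26 fell with a median of -0.42, from the assembly factor gene Psmg3 at -2.44 ± 0.42 to another, Pomp, at 0.09 ± 0.08 (not past). Of 32 heat shock genes 21 fell with a median of -0.39. Dnajb1, an HSP40 induced by stress, was at 32.1, 33.0, 31.8 and 46.1 FPM and then 2.28, 2.01, 0.844 and 2.64 FPM (-3.67 ± 0.39), while Hsbp1, which binds heat shock factor, had a change of 0.24 ± 0.13 that did not pass. In the CCT chaperonin, a ring of 8 different subunits that folds actin and tubulin, 5 fell and 1 rose: Cct4 changed by -0.56 ± 0.08 and Cct7 by 0.17 ± 0.07. Cct7 did not pass without 0 h replicate A, 8 h replicate B or the 8 h library A2 (adjusted p 0.0561 to 0.297). Of 25 endoplasmic reticulum genes 13 fell, with Herpud1, of the degradation pathway, at -2.04 ± 0.36 and Pdia3, a disulphide isomerase, at 0.15 ± 0.07 (not past by limma; adjusted p 0.0296 by edgeR). Of 22 ATF4 targets 11 fell, from Slc38a2 to Phgdh, of serine synthesis, at 0.12 ± 0.14 (not past).

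**Figure D4:**
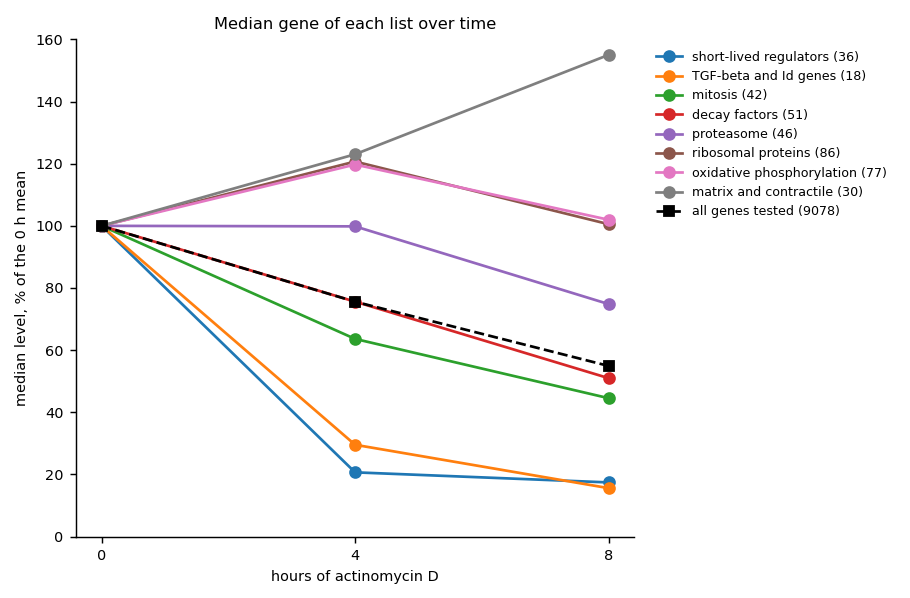
The level of the median member of 8 gene lists at 0, 4 and 8 h of actinomycin D (x axis), as a percentage of the 0 h mean (y axis), with all 9078 genes as black squares. Ribosomal protein and oxidative phosphorylation genes stand near 120% at 4 h and just over 100% at 8 h, and matrix and contractile genes go on to 155%.

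The largest rise was in reads assigned to Tmem38b, an intracellular cation channel gene. Where on the gene, or on its strand, these 3′ end reads fall could not be seen from the deposited values, which holds for Malat1 too. Tmem38b was at 2.47, 3.38, 6.48 and 7.69 FPM at 0 h, 13.8 and 24.7 FPM at 4 h, and 46.8, 64.2, 73.4 and 64.2 FPM at 8 h. Its change of 3.48 ± 0.36 (adjusted p 1.18e-12) was rank 9078 of 9078. Malat1, a long nuclear noncoding RNA, was at 26.5, 33.0, 21.2 and 41.2 FPM at 0 h, 129 and 151 FPM at 4 h, and 263, 232, 261 and 212 FPM at 8 h (2.98 ± 0.15, adjusted p 2.30e-27). The gap between 0 h and 8 h was far wider than the spread of the libraries in both genes. Tmem38b lies at chr4:53825988-53862019 and Malat1 at chr19:5795690-5802672.

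Of 30 noncoding RNAs tested, Malat1 included, 19 fell and 3 rose, with a median of -1.10. Over all genes tested 55.2% fell and 1.73% rose. Neat1, the RNA of paraspeckles and a neighbour of Malat1 on chromosome 19, fell from 59.5 to 74.6 FPM to 18.1 to 32.0 FPM (-1.44 ± 0.19). Rpph1, the RNA of RNase P made by polymerase III, was at 20.97, 25.4, 32.4 and 28.0 FPM at 0 h and near that at 4 h (25.8 and 30.3 FPM). At 8 h it was at 52.5, 63.2, 54.8 and 55.4 FPM (1.07 ± 0.25). These were libraries of poly(A) RNA, and which forms of Rpph1, or of Rmrp below, gave the reads was not tested. Rmrp, the RNA of RNase MRP, was at 0 to 1.40 FPM and then 0.880 to 6.02 FPM, a few reads per library. Its change of 1.31 ± 0.55 did not pass without replicate A of either time or without either A2 library (adjusted p 0.0522 to 0.295).

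Contractile and matrix genes had the highest median of the 46 lists. Of 30 tested members 15 rose and 3 fell, against 1.73 and 55.2% of all genes tested. The median change was 0.56, at the 98.8th percentile. Acta2, smooth muscle actin, was at 80.2, 66.8, 77.7 and 68.5 FPM at 0 h, 107 and 117 FPM at 4 h, and 150, 156, 145 and 143 FPM at 8 h (1.01 ± 0.11, adjusted p 2.11e-12). Tagln, an actin-binding protein of smooth muscle, went from 45.6 to 57.7 FPM to 93.7 to 118 FPM (0.92 ± 0.14). S100a4, a calcium-binding protein of motile cells, was at 5.55 to 9.79 FPM and then 14.0 to 26.3 FPM (1.39 ± 0.32). S100a6, of the same family, rose by 0.65 ± 0.09. The groups of these 4 genes did not overlap, as was so for 1.49% of all genes with the higher level at 8 h. The 3 members that fell were Ccn1, Ccn2 at -1.14 ± 0.16 and Igfbp7 at -0.76 ± 0.24, the last 2 named after their values were seen.

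The fibroblast markers checked, 9 genes, summed to 115 to 124 FPM at 0 h and 224 to 240 FPM at 8 h, and most of that sum was Acta2. Dcn and Lum, which mark fibroblasts, were at 0 FPM in every library of 0 h and at most 1.69 and 0.880 FPM at 8 h. Col1a1 had a mean of 16.2 FPM and then 24.9 FPM, and Col3a1 means of 0.322 and 0.884 FPM. The part of such cells in the rises was not tested. Endoderm markers summed to 1.69 to 4.89 FPM at 0 h and 0 FPM at 8 h, trophectoderm markers to 10.99 to 18.8 FPM and 6.75 to 18.3 FPM, and those of the 2-cell-like state to at most 0.589 and 1.76 FPM, with Zfp352 and Tcstv3 at 0 FPM throughout.

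Among 41 genes of actin, tubulin and their partners 12 rose and 12 fell, with a median of 0.02. For this and the lists below, 1.73% of all genes tested rose and 55.2% fell. Actb was at 3553, 3382, 3497 and 3404 FPM and then 4049, 4164, 4045 and 4257 FPM (0.26 ± 0.03), and Tpm1, a tropomyosin, rose by 0.53 ± 0.13. Tubulin genes differed in size of change. Tuba1b went from 2239 to 2461 FPM to 1853 to 1990 FPM (-0.27 ± 0.04, but 0.12, 0.48 and 0.53 with listed gene, TMM and median gene scaling), and Tubb4b from 499 to 604 FPM to 121 to 147 FPM (-2.08 ± 0.07). Bcam, a laminin receptor, rose by 0.54 ± 0.12. The rise of Lars2, a mitochondrial leucyl-tRNA synthetase, of 0.58 ± 0.18 rested on overlapping groups, with 0 h library A2 at 120 FPM against 52.98 to 61.1 FPM in the other libraries of 0 h, and it did not pass without 0 h replicate B (adjusted p 0.26). Lists of other lineages held few tested genes. Of 7 endoderm genes 0 rose and 0 fell by limma, with Lamc1 at -0.16 ± 0.13 and Col4a2 at 0.43 ± 0.34, both basement membrane chains. At an unadjusted p under 0.05 and by edgeR these counts were also 0. Of 9 trophectoderm genes 4 fell, Ascl2, Tead4, Eomes and Lgals3, the first 3 at means under 4 FPM, and Lgals3, a galectin, lost its call without replicate A of either time (adjusted p 0.148 and 0.161). Krt8, a keratin, did not pass at 0.06 ± 0.12. Eif1a, an initiation factor and the one tested gene of the 2-cell-like list, fell by 2.53.

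The 3′ UTR motifs were then set against the changes of all genes. A 3′ UTR could be read for 8722 of the 9078 genes (96.1%), the sense strand and its reverse complement were both searched, and overlapping matches of a motif were counted. No motif holds another within it, but matches of different motifs may share bases. The Pumilio element TGTANATA was present in 23.0% of these UTRs. The median change of the 2010 genes with it was -1.22, against -0.70 for the 6712 without, a difference of -0.52. The difference was -0.53 in replicate A, -0.52 in replicate B and -0.36 at 4 h. Its reverse complement, present in 13.1% of the UTRs, gave a difference of -0.27. By number of elements the median was -0.70 with 0, -1.14 with 1, -1.37 with 2 and -1.47 with 3 or more. Genes with the element had longer UTRs, and within the short, middle and long class of UTR length, each of equal size, the differences were -0.74, -0.41 and -0.39, against -0.19, -0.10 and -0.12 for the reverse complement. UTRs with more elements were longer too, with a median length of 723 nt at 0 elements and 3333 nt at 3 or more.

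The AU-rich core TATTTAT gave a smaller difference. It was present in 25.5% of the UTRs, with medians of -0.997 with it and -0.75 without, a difference of -0.25. The reverse complement, in 21.9% of UTRs, gave -0.21. The AU-rich matches printed above are thus examples of genes that fell and carry the letters. Over all genes the difference at 8 h was close to that of the reverse complement, and at 4 h it was -0.19 against -0.10. Within the length classes the difference at 8 h was -0.15, -0.10 and -0.16, against -0.16, -0.05 and -0.13. Within the low, middle and high class of UTR GC content it was -0.18, -0.27 and -0.23, against -0.18, -0.19 and -0.11. The m6A consensus GGACT was in 58.4% of UTRs and gave -0.25 against -0.15 for its reverse complement. Genes with it had longer UTRs, with a median of 1424 against 418 nt. Within the short, middle and long classes the difference was -0.17, -0.06 and -0.10, against 0.005, 0.08 and -0.09 for the reverse complement.

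The 7 bases AGCACTT pair with the seed, bases 2 to 8, of the miR-290 and miR-302 families, the main microRNAs of mouse embryonic stem cells. The mature sequences of 1 member of each, from RefSeq (GRCm38.p6), show the shared seed in capitals.
mmu-miR-294-3p: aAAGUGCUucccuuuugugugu
mmu-miR-302b-3p: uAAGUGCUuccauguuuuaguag
The match was in 14.1% of UTRs, with medians of -1.11 with it and -0.76 without, and the difference of -0.35 compares with -0.25 for the reverse complement. In the short, middle and long classes, where 84, 294 and 854 genes had it, the differences were -0.55, -0.21 and -0.19, against -0.24, -0.06 and -0.11. The match CTACCTC to the seed of let-7, a family that is low in stem cells, was in 8.70% of UTRs and gave -0.18 against -0.07. Within the length classes its differences were 0.06, -0.12 and -0.04, against -0.015, 0.14 and 0.02 for the reverse complement. Genes with the match had a median UTR of 1926 nt against 833 nt. The microRNAs themselves were not measured in these poly(A) libraries.

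**Figure D5:**
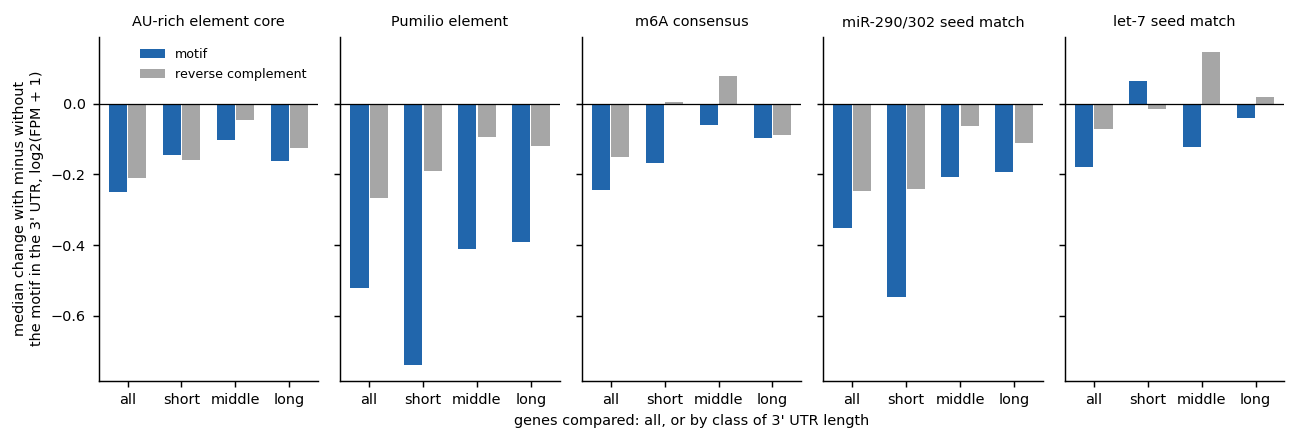
Difference in median change, 8 h minus 0 h in log2(FPM + 1), between genes with and without each of 5 motifs in the 3′ UTR (y axis), for all genes and within 3 classes of 3′ UTR length (x axis), with the reverse complement in grey. The Pumilio element gives -0.52 over all genes and lies below its reverse complement in each class.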

How the data were processed

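Poly(A) RNA of WT mouse embryonic stem cells was read by 3′ end sequencing in 4 libraries of 0 h, 4 of 8 h and 2 of the time between. The deposited values are FPM, which is RPM: reads on each RefSeq transcript, scaled by the authors to a library total of 1000000 with no correction for length. The tools CASAVA 1.8.2 and Bowtie2 and the build mm10 are named per the submitters' processing notes. How reads with several matches or of either strand were counted, which annotation served and by which rule transcripts were kept are not given in the sources used here. Among the 8 libraries compared, 100.0% of the values were whole reads within 0.1 read, from which the totals of 875830 to 1698720 reads follow. A value near 5 FPM thus rests on few reads.

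The table held 22338 transcripts. The RefSeq gene table of GRCm38.p6 named 21729 and GENCODE M21 another 120, and 489 had no name. After 2169 repeats with identical values in all libraries were dropped, distinct transcripts of 652 genes were summed, which gave 19455 genes, of which 2151 share identical values with another gene. Duplicates were averaged on the log2(FPM + 1) scale (pseudocount 1), which understates the change of low genes. A gene entered where 2 or more replicate means reached 5 FPM, and was fitted with limma 3.58 in R 4.3, with a mean-variance trend, on all 30 replicate means of the series, and p-values were adjusted by Benjamini-Hochberg over all genes tested at 0.05. The script was tested on simulated data. Alternatives, among them edgeR 4.0 on the recovered reads, are given in the closing section. Motif counts used Python 3.11 and 3′ UTRs of GENCODE M21.

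The genes named were a fixed panel, the 10 largest falls and 10 largest rises with at least 50 FPM at the higher time that passed and moved alike in A and B, and the highest and lowest member of each of 46 lists with at least 20 FPM at either time. Unnamed models and pseudogenes were left out, and a few genes that the rule selects are not reported here. The comparison, the lists and the rule were chosen with earlier results of these data known, so no list is independent evidence of its direction. Some genes stand in more than 1 list.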

Additional observations from a re-analysis of the deposited data

Results flagged for a closer look

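Among the 240 groups of 4 libraries of the 120 named genes, 8 held a library that stood far from the other 3, by Dixon's critical value for the gap over the range. Chance gives about 1 in 20 such groups. At 0 h, Dnajb1 was at 46.14 FPM in library B2 and 31.79 to 32.96 FPM in the others, Lars2 was at 120 FPM in library A2 and 52.98 to 61.05 FPM in the others, and Rmrp was at 0 FPM in library A2 and 1.177 to 1.398 FPM in the others. The other 5 were all library A2 of 8 h, and in each it was the highest. There Rfc3 was at 6.019 FPM against 3.375 to 3.52 FPM, Cnot1 at 46.15 FPM against 36.28 to 36.96 FPM, and Atp6v0d1 at 119.4 FPM against 89.45 to 93.63 FPM. Jun was at 1.003 FPM and Myc at 2.006 FPM in that library, which is 1 read and 2 reads, against 0 FPM in the other 3.

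In alternatives chosen after seeing the data, leaving library A2 of 8 h out of its replicate mean gave 148 genes that rose and 4908 that fell, and leaving out library A2 of 0 h gave 150 and 5098.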

How the results depend on the processing

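Counts of genes that rose and fell were 157 and 5007 on the library total, 1851 and 1672 with median gene scaling, 1570 and 2131 with TMM scaling, and 730 and 3249 with scaling to the listed genes. The median change was -0.81 on the library total and -0.010, -0.159 and -0.479 with these 3 scalings. It was -0.871 with a pseudocount of 0.5, -0.548 with 5, -0.235 with no filter (19455 genes, of which 335 rose), -0.655 with a filter of 20 FPM (4871 genes, of which 3062 fell), -0.751 with the filter taken on WT alone and -0.859 with edgeR on the recovered reads. The scalings differ by construction in what is held constant, and the cause of the other shifts was not tested beyond the number of genes kept. Leaving out 1 replicate mean at a time gave 107 to 125 rises, 3961 to 4168 falls and medians of -0.820 to -0.797. Fits with WT alone, with the plain sum of transcripts or without 1 of the A2 libraries gave 143 to 150 rises and 4676 to 5098 falls. EdgeR called 191 rises and 5314 falls.

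The fit with the replicate letter as a block (replicate block) gave 158 rises and 5017 falls, a median of -0.81, and changed no call of a named gene. The letters were not treated as pairs, since the differences between A and B had correlations over genes of -0.000405 for 0 h and 8 h, 0.0277 for 0 h and 4 h and 0.00664 for 4 h and 8 h.

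Leaving out 1 replicate mean ended the call of 4 to 7 of the 120 named genes, and median gene, TMM and listed gene scaling ended that of 20, 17 and 10, of which 11, 11 and 6 turned above 0. These scalings move all genes by about the same step. Among called and other named genes, the values that turned above 0 with median gene scaling were Tdgf1 0.111, Ndufs7 0.130, H2ax 0.178, Kdm6b 0.189, Cct4 0.240, Lgals3 0.444, Ctnnb1 0.460, Ehmt2 0.492, Tuba1b 0.532, Mxd3 0.555, Zfp106 0.579, Ube2s 0.587, Trp53 0.624, Lamc1 0.637, Eef1a1 0.637, Bak1 0.657, Noc4l 0.658, Acat2 0.690, Dnmt3b 0.695 and Hnrnpk 0.757. With TMM scaling they were Tdgf1 0.054, Ndufs7 0.053, H2ax 0.120, Kdm6b 0.100, Cct4 0.183, Lgals3 0.382, Ctnnb1 0.403, Ehmt2 0.427, Tuba1b 0.478, Mxd3 0.494, Zfp106 0.514, Ube2s 0.529, Trp53 0.565, Lamc1 0.575, Eef1a1 0.583, Bak1 0.595, Noc4l 0.587, Acat2 0.627, Dnmt3b 0.623 and Hnrnpk 0.701. With scaling to the listed genes they were Lgals3 0.026, Ctnnb1 0.044, Tuba1b 0.118, Mxd3 0.137, Ube2s 0.171, Eef1a1 0.222 and Hnrnpk 0.341. Of 40 list medians below 0, 17, 16 and 7 turned above 0 with the same 3 scalings. Depth limits the low genes, whose median SE was 0.50 under 10 FPM.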
